A study of Homo sapiens with 24 samples.

Results

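The genes described here are 36 genes of glycolysis and of the response to low oxygen, measured in U87 MG cells, an established human glioblastoma line. They were chosen by name, 20 for their place in glucose uptake and glycolysis and 16 as the oxygen-sensing factor HIF1A, its prolyl hydroxylases and other genes induced by hypoxia, and a gene spot counted as a member where its name was the listed symbol or an older or newer form of it. All 36 were among the 30982 gene names of the array, and all 36 were among the 22944 names with a probe bright enough to be tested. The brightest probe of each of the 36 was well above background on all 8 arrays in both channels. The cells were irradiated with protons (proton therapy, PT) at 2 or 10 Gy, alone or after treatment with 10 µM Si306, an inhibitor of SRC family kinases, and RNA was taken 24 h after irradiation. Each 2-colour array set one treated sample, labelled with Cy5, against its control, labelled with Cy3. There were 4 configurations. In U87 2 Gy and in U87 10 Gy the control was untreated cells, and in the combined treatments, U87 Si306 + 2 Gy with its counterpart U87 Si306 + 10 Gy, it was cells given PT alone at the matching dose. No array held cells given Si306 without protons, so each Si306 value is a difference between irradiated cells, and both PT values share the untreated control. The single cell line stands for glioblastoma cells in culture without the vessels and other cells of a tumor.

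Glycolysis splits glucose to pyruvate in an energy-consuming preparatory phase and an energy-yielding pay-off phase, and lactate dehydrogenase then regenerates NAD+ by turning pyruvate into lactate. The hypoxia response rests on HIF1A, which is hydroxylated by the EGLN prolyl hydroxylases and degraded through VHL while oxygen is present, and which otherwise pairs with ARNT and binds short ACGTG-type elements in its target genes. Many glycolysis enzymes are HIF targets, and glioblastomas are known for high glucose use and for hypoxic zones around necrosis.

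Each configuration had 2 arrays, and the members' values below are given for both. The labels count 6 biological replicates per configuration, but the scanner headers name 8 arrays that were each scanned 3 times, and 2 scans lay on an array of the other proton dose and were left out, so 22 of 24 scans entered and scans of an array were averaged. The scans left out differed from others of their own array with an SD of 0.0776 and 0.0762, and from those of their label with 0.179 and 0.171. Scans of the same array differed with a median SD of 0.0754 (log2 ratio over the kept probes), scans of the 2 arrays of a configuration with 0.109 and scans of different configurations with 0.395. Beyond that label, whether the 2 arrays of a configuration carried separate cultures is not given in the sources used here, so the p-values measure the spread between arrays, which may be technical. The dyes were never swapped, so a dye bias of a probe stayed in the 4 configurations but cancelled in a difference between doses. The PT arrays lay on 1 slide and the Si306 arrays on the other, and the slide and Si306 cannot be told apart between them. Markers expected of U87 cells were present: VIM, NES, CD44, FN1, SPARC and GFAP were well above background on 8 of 8 arrays in both channels, while OLIG2 was so on 3 arrays in Cy3 and 4 in Cy5 and S100B on 0 and 1. Among leukocyte markers, PTPRC was well above background on none of the 8 arrays, CD3E on 5 and 8, and CD14 on all 8. The epithelial KRT8, KRT18 and KRT19 were so on all 8 and EPCAM on 6 and 7, and the endothelial PECAM1 on 4 and 4, CDH5 on 0 and 3 and VWF on 3 and 8. In bulk RNA, fewer cells of a kind and less RNA per cell cannot be told apart.

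Members were called where limma's adjusted p (Benjamini-Hochberg over the 22944 names) was under 0.05, and differentially expressed genes (DEGs) also had to change at least 2-fold. The values and counts of a member, and every order among members, are those of its brightest kept probe unless another probe is named. After 2 Gy of PT, 17 of the 36 members were called higher and 8 lower, where 32% of all names were called higher and 24.9% lower. After 10 Gy, 20 members were higher and 5 lower, against 31.1% and 26.3% of all names. With Si306 at 2 Gy, 23 members were higher and 3 lower, against 38.6% and 27.9%. With Si306 at 10 Gy, 15 were higher and 13 lower, against 35% and 27.2%. These shares show how many small differences the arrays called, and the members' medians stayed small beside them: log2 fold changes of 0.09, 0.12, 0.23 and 0.039 in the same order, where the medians over all names were 0.021, 0.015, 0.038 and 0.025. DEGs among the members were 0 after PT alone at either dose (0.728% and 0.963% of all names), 3 with Si306 at 2 Gy (ADM, LOX and ANKRD37; 0.719% of all names) and 1 with Si306 at 10 Gy (DDIT4; 0.37%). With the scanner software's own log ratios the counts were 0, 1, 4 and 1, with median centring 2, 1, 15 and 1, and with the mean of a gene's probes 0, 1, 3 and 1. The separate-channel model described below had 14 and 13 members past 2-fold after 2 and 10 Gy of PT and 17 with Si306 at either dose. The share of all names past 2-fold was not counted in these other settings, so these counts cannot show whether the members stood apart. Among the dimmer probes of the members, 1 of PFKL passed 2-fold after both doses of PT and 1 of PFKFB3 after 10 Gy. With Si306 that PFKFB3 probe passed it at both doses, at 2.20 and 3.03, and 1 of PGK1 at 2 Gy, at 1.03.

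The members' shares departed farthest from those of all names in the Si306 difference between doses, where dye bias cancels. The Si306 effect at 10 Gy was called lower than at 2 Gy for 23 members and higher for 2, where 12.6% of all names were lower and 10.1% higher, and the members' median difference was -0.21 on the log2 scale against -0.011 over all names. For PT alone, 13 members were higher at 10 Gy than at 2 Gy and 6 lower, against 9.95% and 11.1% of all names, with a median difference of 0.1 against -0.0075. At least 2-fold were 2 members in the Si306 difference, ADM and ANKRD37 (0.161% of all names), and 0 in the PT difference (0.0436%). The median Si306 difference was -0.38 over the hypoxia members, with 12 of 16 lower, and -0.16 over the glycolysis members, with 11 of 20 lower. Both differences share the irradiated cells: U87 2 Gy and U87 10 Gy are the treated side of the PT values and the control side of the Si306 values.

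The direction of the values in a configuration depended on the normalisation in bright genes, and the members were bright, with a median log2 intensity of 12.65 against 8.17 over all names. With each array centred on its median in place of the intensity-dependent loess curve, the members called higher and lower were 31 and 2 after 2 Gy, 32 and 2 after 10 Gy, 35 and 1 with Si306 at 2 Gy, and 31 and 1 with Si306 at 10 Gy. Of all names, 43.9% and 40.8%, 42.1% and 39.3%, 47.9% and 41.5%, and 45.1% and 37.5% were then called higher and lower. The members called lower that then lay above 0 were 5 of 8 after 2 Gy, 2 of 5 after 10 Gy, 3 of 3 with Si306 at 2 Gy and 10 of 13 with Si306 at 10 Gy, while none of those called higher fell below 0. Under that centring the 1975 names brighter than the median member had medians of 0.46, 0.36, 0.82 and 0.56, so the values below are relative to genes of like brightness. In the differences between doses those bright names had medians of -0.097 for PT and -0.29 for Si306. The members' split there became 5 higher and 8 lower for PT (7.4% and 10% of all names) and 0 higher and 29 lower for Si306 (29.7% and 25.2%). Of all calls there only 1 value, PKM2 with Si306, changed sign. When the channels were modelled separately and each probe given its own dye effect, for 34 members, 14 of 24 called members after 2 Gy, 19 of 23 after 10 Gy, 14 of 25 with Si306 at 2 Gy and 12 of 26 with Si306 at 10 Gy had the opposite sign, and 0 did in either difference between doses.

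**Figure D1:**
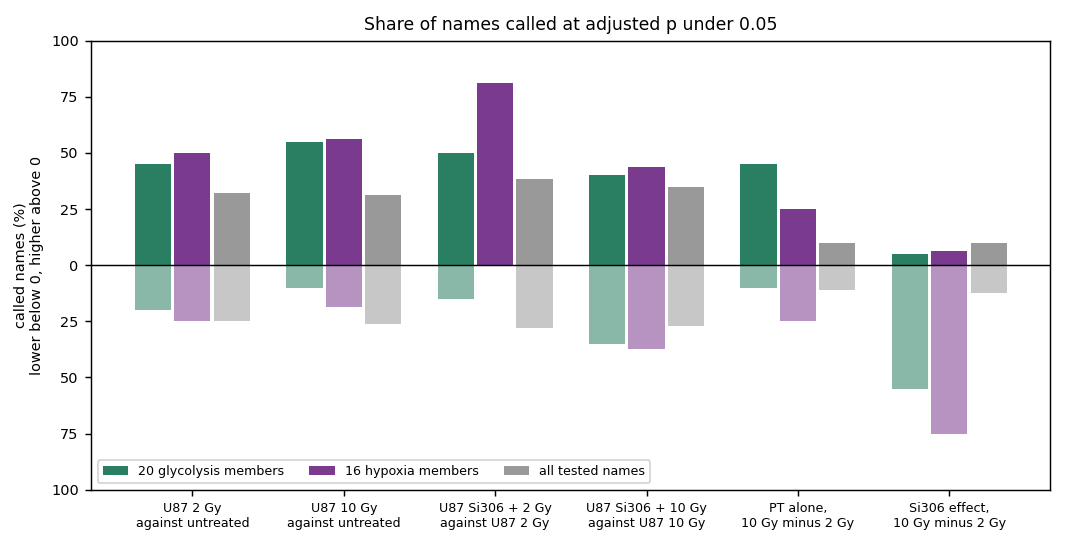
Share of the 20 glycolysis members, the 16 hypoxia members and all tested names (bars by colour, in percent) called higher (above 0) or lower (below 0) at limma's adjusted p under 0.05, for the 4 configurations and the 2 differences between doses. In the Si306 effect at 10 Gy minus that at 2 Gy, 75% of the hypoxia and 55% of the glycolysis members were lower, against 12.6% of all names.

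Since HIF binds such elements near the start of its target genes, the promoter letters of the members are given before their values. RefSeq promoter windows (GRCh38.p14) from 250 bases before to 50 bases after a start were found for 32 of the 36 members, and not for VEGFA, SLC2A3, NDRG1 and BNIP3L. The element ACGTG, read on either strand as ACGTG or CACGT, lay in at least 1 window of 20 of the 32 members (62.5%), where 24.9% of the 27305 genes with a window held it. Counted per window, 26 of 58 member windows held it (44.8%) against 21.4% of 35116 windows. Glycolysis members held it in 12 of 19 cases and hypoxia members in 8 of 13. The 250 bases before the start are printed 5′ to 3′ on the gene's strand for the 4 DEGs and for HK2, the glycolysis member whose brightest probe had the highest Si306 value, with each match in capitals. Where a gene had several annotated starts, the window with the most matches is printed, which for HK2 is 1 of 2 (the other held 2 matches) and for LOX 1 of 3 (the others held 1 each). A palindromic CACGTG counts as 2 overlapping matches, and a match is a description of letters and not a bound site.
ADM (chr11:10304823-10305072, plus strand, 0 matches): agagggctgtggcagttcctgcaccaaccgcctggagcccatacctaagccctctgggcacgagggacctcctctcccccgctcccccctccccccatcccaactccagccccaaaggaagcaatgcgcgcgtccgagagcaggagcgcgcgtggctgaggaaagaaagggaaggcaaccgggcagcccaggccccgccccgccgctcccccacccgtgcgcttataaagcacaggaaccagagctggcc
ANKRD37 (chr4:185396591-185396840, plus strand, 3 matches): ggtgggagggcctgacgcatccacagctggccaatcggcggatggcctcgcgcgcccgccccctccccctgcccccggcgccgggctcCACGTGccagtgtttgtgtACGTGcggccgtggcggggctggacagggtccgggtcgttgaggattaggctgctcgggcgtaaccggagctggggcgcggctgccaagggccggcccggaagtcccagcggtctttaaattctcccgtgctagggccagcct
DDIT4 (chr10:72273674-72273923, plus strand, 1 match): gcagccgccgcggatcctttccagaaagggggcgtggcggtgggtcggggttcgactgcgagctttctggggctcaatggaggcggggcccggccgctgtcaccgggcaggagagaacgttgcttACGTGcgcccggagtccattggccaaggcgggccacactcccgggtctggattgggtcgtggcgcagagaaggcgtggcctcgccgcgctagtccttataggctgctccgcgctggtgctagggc
LOX (chr5:122078260-122078509, minus strand, 4 matches): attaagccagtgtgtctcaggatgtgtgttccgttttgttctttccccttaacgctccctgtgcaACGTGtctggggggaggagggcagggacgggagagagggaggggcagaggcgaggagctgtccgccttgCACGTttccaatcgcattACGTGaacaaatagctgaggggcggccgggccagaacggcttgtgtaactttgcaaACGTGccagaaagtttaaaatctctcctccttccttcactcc
HK2 (chr2:74834920-74835169, plus strand, 4 matches): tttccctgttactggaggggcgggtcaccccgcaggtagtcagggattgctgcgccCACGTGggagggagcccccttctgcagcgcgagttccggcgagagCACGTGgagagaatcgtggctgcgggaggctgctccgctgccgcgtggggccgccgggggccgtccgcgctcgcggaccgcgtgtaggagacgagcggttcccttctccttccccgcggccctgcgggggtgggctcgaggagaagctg
The printed HK2 window held 2 whole palindromes, and the ANKRD37 window 1 palindrome with a further match close by. ADM, with the highest Si306 value of the brightest probes, held neither ACGTG nor CACGT in this window. Other forms of the element were not searched.

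**Figure D2:**
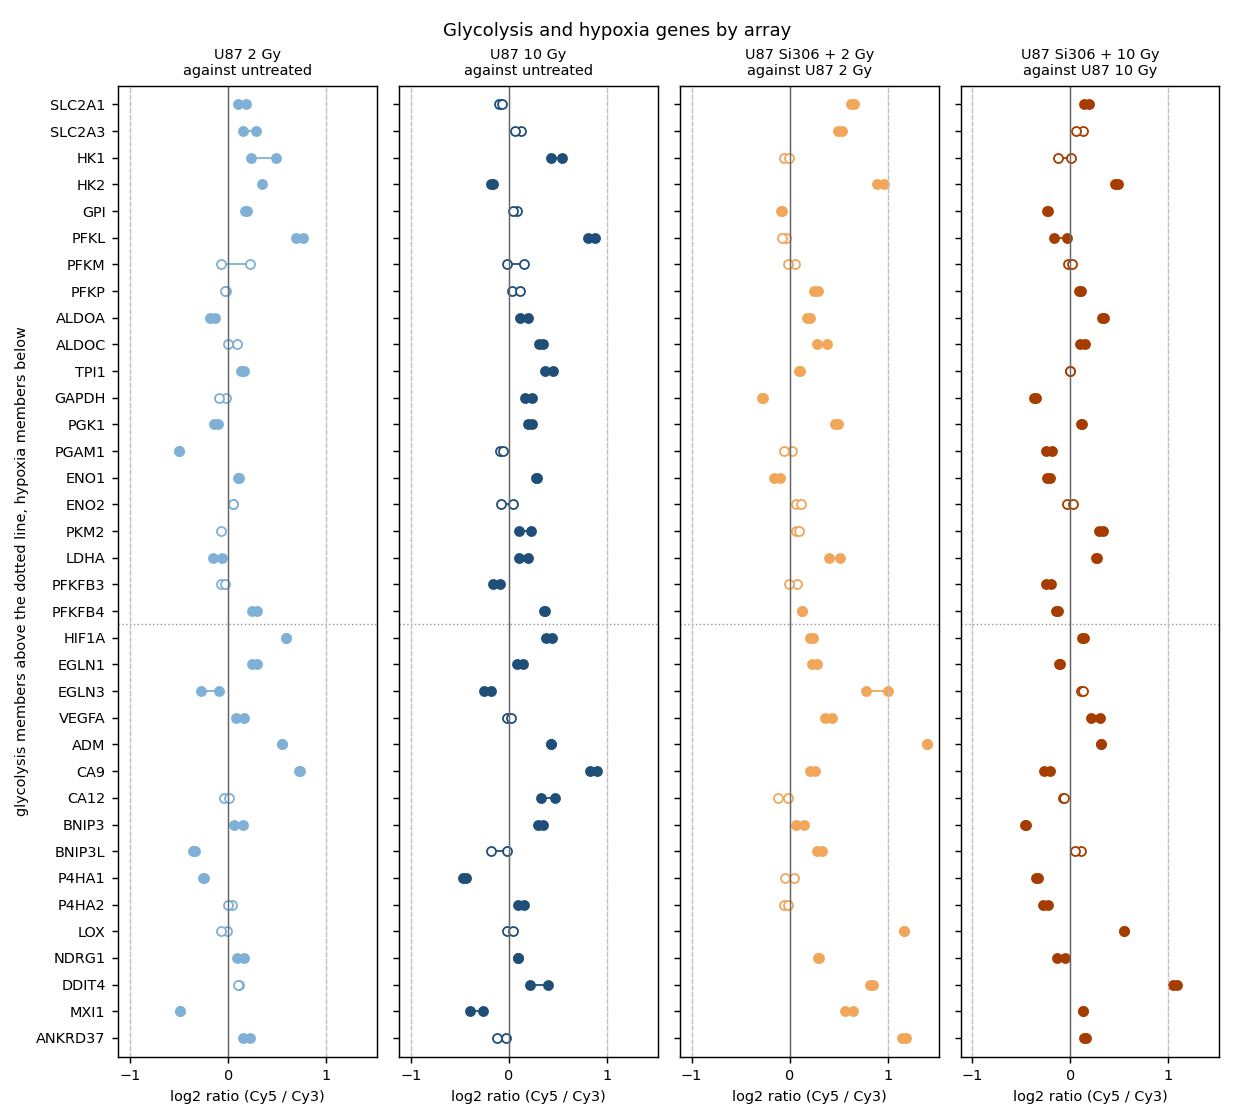
Log2 ratio of each of the 36 members on each array (points; the line joins the 2 arrays of a configuration), in 1 panel per configuration, with members ordered by role. The panel of U87 Si306 + 2 Gy reaches farthest to the right, at 1.40 for ADM, and most of the same members lie closer to 0 in the panel of U87 Si306 + 10 Gy.

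The secreted vascular factors held the highest Si306 value of the brightest probes. ADM encodes adrenomedullin, a vasodilating peptide that is among the most strongly hypoxia-induced transcripts. Its log2 ratios were 0.55 and 0.54 on the 2 arrays of U87 2 Gy and 0.43 and 0.43 on those of U87 10 Gy, so both arrays of both doses lay well above 0. With Si306 they were 1.40 and 1.40 at 2 Gy and 0.31 and 0.31 at 10 Gy. The Si306 value at 2 Gy corresponds to a 2.64-fold higher level (log2 fold change 1.40 ± 0.030, SE, n = 2 arrays, limma adjusted p = 2.35e-10), with any dye bias of the probe still in it. The difference between doses, where such a bias cancels, was -1.08 ± 0.042 (adjusted p = 1.4e-07), the largest among the members. VEGFA, the main growth factor for blood vessels, was listed on the array as VEGF. Its ratios were 0.078 and 0.17 after 2 Gy and -0.020 and 0.021 after 10 Gy, then 0.44 and 0.36 with Si306 at 2 Gy and 0.21 and 0.30 with Si306 at 10 Gy. It was called higher with Si306 at both doses, and the difference between doses of -0.14 was not called (adjusted p = 0.0876). The 3 other VEGFA probes were called higher with Si306 at 2 Gy too, from 0.15 to 0.79, and they differed elsewhere. The probe at chr6:43846589-43846648 on the plus strand (positions of probes are on hg17) reached 0.65 after 2 Gy and 0.90 after 10 Gy of PT (adjusted p = 3.36e-07 and 2.37e-08) and was not called with Si306 at 10 Gy, at 0.052. The probe at chr6:43860503-43860562 had a called Si306 difference between doses of -0.28 (adjusted p = 0.00199).

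HIF1A and its hydroxylases were called in nearly every configuration, where 57%, 57.5%, 66.5% and 62.2% of all names were called. HIF1A had ratios of 0.59 and 0.59 after 2 Gy and 0.38 and 0.44 after 10 Gy, a 1.5-fold and a 1.33-fold higher transcript level. With Si306 it was called higher again, at 0.23 and 0.21 for 2 Gy and 0.14 and 0.12 for 10 Gy. HIF1A and ADM were the 2 members called higher in each of the 4 configurations, as 6.52% of all names were. The regulation of HIF1A by oxygen acts on the protein, which the arrays do not measure. EGLN1 (PHD2), the main oxygen sensor of the family, had 0.25 and 0.29 after 2 Gy, 0.086 and 0.14 after 10 Gy, 0.28 and 0.23 with Si306 at 2 Gy and -0.11 and -0.11 with Si306 at 10 Gy. It thus stood on opposite sides of 0 at the 2 doses of the combined treatment, with a difference of -0.37 ± 0.046 (adjusted p = 0.000496). Its other probe, at chr1:227863711-227863770 on the minus strand, had -0.072 with Si306 at 2 Gy (not called) and -0.36 at 10 Gy, with a called difference of -0.28 (adjusted p = 0.00529). That probe was called lower after 10 Gy of PT, at -0.15 (adjusted p = 0.00632), where the brightest was called higher. EGLN3 (PHD3), itself a HIF target, lay below 0 after PT alone, at -0.28 and -0.10 for 2 Gy and -0.18 and -0.26 for 10 Gy. Its Si306 ratios were 1.00 and 0.78 at 2 Gy, 1.86-fold, and 0.11 and 0.13 at 10 Gy, where it was not called (adjusted p = 0.0844). The pair of arrays at 2 Gy lay wholly above the pair at 10 Gy, and the difference was -0.77 ± 0.078 (adjusted p = 0.000117).

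Among the growth and stress regulators, 4 of 4 members were called higher with Si306 at 2 Gy and 3 of them at 10 Gy, against 38.6% and 35% of all names. ANKRD37 encodes a small ankyrin-repeat protein and is a direct HIF1 target. Its ratios were 0.22 and 0.15 after 2 Gy, -0.032 and -0.12 after 10 Gy, 1.19 and 1.15 with Si306 at 2 Gy and 0.16 and 0.14 with Si306 at 10 Gy. Its Si306 value fell from 2.25-fold at 2 Gy to 1.11-fold at 10 Gy, a log2 difference of -1.02 ± 0.050 (adjusted p = 8.53e-07). DDIT4 (REDD1), an inhibitor of mTOR signalling that is induced by hypoxia, DNA damage and other stress, went the other way. Its ratios were 0.11 and 0.10 after 2 Gy and 0.21 and 0.40 after 10 Gy, then 0.85 and 0.82 with Si306 at 2 Gy and 1.05 and 1.09 with Si306 at 10 Gy. It was 2.1-fold higher with Si306 at 10 Gy (adjusted p = 2.28e-08), the one DEG there, and with PKM2 it was 1 of 2 members whose brightest probe was called higher in the Si306 effect at 10 Gy than at 2 Gy (0.24 ± 0.059, adjusted p = 0.0174). MXI1, an antagonist of MYC, was lower after PT alone, at -0.49 and -0.49 for 2 Gy and -0.26 and -0.40 for 10 Gy. With Si306 it lay above 0, at 0.65 and 0.56 for 2 Gy and 0.13 and 0.13 for 10 Gy, with a difference of -0.48 (adjusted p = 0.000276). NDRG1, a stress-responsive gene linked to differentiation, had 0.086 and 0.16 after 2 Gy, 0.091 and 0.091 after 10 Gy, 0.29 and 0.30 with Si306 at 2 Gy and -0.056 and -0.14 with Si306 at 10 Gy. Its small fall with Si306 at 10 Gy turned to a rise of 0.49 with median centring, and its other probe was not called there (-0.075, adjusted p = 0.0795).

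The collagen-modifying enzymes parted from each other. LOX encodes lysyl oxidase, which cross-links collagen and elastin. It was called at neither dose of PT alone, with -0.016 and -0.070 at 2 Gy and -0.015 and 0.040 at 10 Gy (adjusted p = 0.278 and 0.758). With Si306 it had 1.16 and 1.17 at 2 Gy and 0.54 and 0.54 at 10 Gy, so the paired arrays nearly coincided at both doses. These are 2.24-fold and 1.46-fold higher levels, and they differed by -0.62 ± 0.045 (adjusted p = 1.2e-05). P4HA1, the catalytic subunit of the prolyl hydroxylase that stabilises the collagen helix, was lower after PT, at -0.25 and -0.25 for 2 Gy and -0.47 and -0.44 for 10 Gy. With Si306 it had 0.041 and -0.045 at 2 Gy, around 0, and -0.35 and -0.33 at 10 Gy. Its fall at 2 Gy of PT became 0.089 with median centring, while the fall at 10 Gy kept its sign. P4HA2, an alternative catalytic subunit, ranged from -0.25 to 0.12 over the 4 configurations. It was called higher after 10 Gy of PT and lower with Si306 at 10 Gy, the latter reversed to 0.17 with median centring. Its other kept probe, at chr5:131567741-131571355 on the minus strand (hg17), was called higher after both doses of PT, at 0.50 for 2 Gy and 0.56 for 10 Gy (adjusted p = 1.85e-06 and 6.31e-07), and lower with Si306 at both, at -0.17 and -0.19. The Si306 difference between doses was called on the brightest probe (-0.21, adjusted p = 0.0105) and not on the other (-0.023, adjusted p = 0.808).

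The carbonic anhydrases, membrane enzymes that take part in the pH regulation of glycolytic cells, differed after PT. CA9, a classical hypoxia marker, had ratios of 0.72 and 0.73 after 2 Gy and 0.89 and 0.83 after 10 Gy. These 1.66-fold and 1.81-fold higher levels (adjusted p = 4.41e-08 and 8.88e-09) stood at the top of the members with those of PFKL, described below, from which they did not differ beyond the spread of the arrays, and their difference was not called (adjusted p = 0.0777). With Si306 CA9 lay at 0.26 and 0.21 for 2 Gy and -0.21 and -0.27 for 10 Gy, on opposite sides of 0, with a difference of -0.47 ± 0.048 (adjusted p = 0.000119). The brightest probe of CA12 was called higher at 10 Gy of PT, at 0.47 and 0.33, and not called at 2 Gy, at -0.038 and 0.0097. That difference of 0.41 ± 0.057 was called (adjusted p = 0.000811), and neither Si306 value was, with -0.12 and -0.020 at 2 Gy and -0.076 and -0.063 at 10 Gy. Its other probes did not share this pattern. The probe at chr15:61403552-61403611 on the minus strand (hg17) was called higher after both doses of PT, at 0.69 and 0.73, with no called difference between them (0.031, adjusted p = 0.763). It was called lower with Si306 at both doses, at -0.20 and -0.21 (adjusted p = 0.0015 and 0.000916). The probe at chr15:61401727-61401786 was lower after both doses of PT, at -0.21 and -0.38, and was called at neither dose of Si306.

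BNIP3 and BNIP3L encode proteins of the outer mitochondrial membrane that take part in mitophagy. BNIP3 had 0.060 and 0.16 after 2 Gy, 0.30 and 0.34 after 10 Gy and 0.14 and 0.068 with Si306 at 2 Gy, all above 0. With Si306 at 10 Gy it fell to -0.47 and -0.45, the lowest Si306 value of any member's brightest probe, and the difference between doses was -0.56 ± 0.051 (adjusted p = 5.42e-05). With median centring that fall became a rise of 0.15, while the difference between doses kept its direction. BNIP3L was lower after 2 Gy of PT, at -0.36 and -0.34, and not called at 10 Gy, at -0.020 and -0.18. With Si306 it had 0.33 and 0.28 at 2 Gy, called higher, and 0.11 and 0.048 at 10 Gy, not called. Its other kept probe was called in all of these, with -0.49 after 2 Gy, -0.29 after 10 Gy, 0.56 with Si306 at 2 Gy and 0.31 with Si306 at 10 Gy (adjusted p = 1.37e-05 and 9.7e-06 at 10 Gy).

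On their brightest probes both glucose transporters were called higher with Si306 at 2 Gy, where 38.6% of all names were. SLC2A1 (GLUT1), the ubiquitous transporter, had ratios of 0.18 and 0.10 after 2 Gy and -0.10 and -0.068 after 10 Gy. With Si306 it reached 0.65 and 0.63 at 2 Gy, 1.56-fold, and 0.14 and 0.19 at 10 Gy, and the pairs of arrays did not overlap. The difference between doses was -0.48 ± 0.048 with Si306 (adjusted p = 0.000118) and -0.22 ± 0.048 for PT alone (adjusted p = 0.00883). SLC2A3 (GLUT3), a high-affinity transporter known from neurons, had 0.16 and 0.28 after 2 Gy, 0.12 and 0.065 after 10 Gy, 0.49 and 0.54 with Si306 at 2 Gy and 0.12 and 0.061 with Si306 at 10 Gy. Its second probe was called lower with Si306 at 2 Gy, at -0.10 (adjusted p = 0.0277). The Si306 difference between doses, -0.42 on the brightest probe, was not called on that one (0.032, adjusted p = 0.696), and its difference between PT doses of -0.39 was called (adjusted p = 0.000565).

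In the preparatory phase, 5 of 9 enzymes were called higher after each dose of PT, 5 with Si306 at 2 Gy and 4 with Si306 at 10 Gy, where 32%, 31.1%, 38.6% and 35% of all names were, while 1, 1, 1 and 2 were called lower (24.9%, 26.3%, 27.9% and 27.2% of all names). HK2, the inducible hexokinase of many tumors, held the largest Si306 value among the brightest probes of the glycolysis members, below single dimmer probes of PFKFB3 and PGK1 described further on. Its ratios with Si306 were 0.96 and 0.89 at 2 Gy, 1.9-fold, and 0.48 and 0.45 at 10 Gy, with a difference of -0.46 ± 0.048 (adjusted p = 0.000234). After PT alone it had -0.18 and -0.17 at 10 Gy and, at 2 Gy, 0.35 on the 1 array that measured it, which makes the PT difference of -0.52 (adjusted p = 0.000348) rest on that array. On its other probe that difference was not called (-0.088, adjusted p = 0.298). HK1, the housekeeping hexokinase, was called higher after both doses of PT, with 0.49 and 0.24 after 2 Gy and 0.43 and 0.54 after 10 Gy. It was not called with Si306, where it had -0.056 and -0.010 at 2 Gy and -0.13 and 0.0023 at 10 Gy. PFKL, the liver-type subunit of phosphofructokinase, which catalyses the committed step, likewise rose after PT and not with Si306 at 2 Gy. Its ratios were 0.76 and 0.69 after 2 Gy, 1.65-fold, and 0.88 and 0.81 after 10 Gy, 1.8-fold, then -0.036 and -0.074 with Si306 at 2 Gy and -0.16 and -0.038 with Si306 at 10 Gy. Its dimmer kept probe, at chr21:44568918-44569177 on the plus strand (hg17), went farther, with 0.98 and 1.06 after 2 Gy and 1.30 and 1.28 after 10 Gy of PT. That is over 2-fold at both doses (adjusted p = 8.38e-09 and 1.07e-09), and its PT difference of 0.27 was called (adjusted p = 0.00632) where that of the brightest probe, 0.12, was not (adjusted p = 0.156). The platelet-type subunit PFKP was called with Si306 and not after PT, with 0.29 and 0.25 at 2 Gy and 0.084 and 0.10 at 10 Gy, and the muscle-type subunit PFKM was called in none of the 4 configurations. PFKM ranged from -0.0028 to 0.076, and its arrays at 2 Gy of PT lay at 0.23 and -0.075, the widest gap of any member.

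GPI, which converts glucose-6-phosphate to fructose-6-phosphate, had 0.20 and 0.17 after 2 Gy, 0.087 and 0.042 after 10 Gy, -0.088 and -0.075 with Si306 at 2 Gy and -0.24 and -0.23 with Si306 at 10 Gy. With GAPDH and ENO1 it was 1 of 3 members called lower with Si306 at both doses, as 20.6% of all names were, and each of these 6 values lay above 0 with median centring. The aldolases split fructose-1,6-bisphosphate. ALDOA, the muscle and ubiquitous form, had -0.19 and -0.13 after 2 Gy of PT and 0.11 and 0.19 after 10 Gy, then 0.17 and 0.21 with Si306 at 2 Gy and 0.32 and 0.34 with Si306 at 10 Gy. ALDOC, the form of brain, had 0.086 and -0.00070 after 2 Gy, 0.31 and 0.35 after 10 Gy, 0.38 and 0.28 with Si306 at 2 Gy and 0.10 and 0.15 with Si306 at 10 Gy. Both were higher at 10 Gy than at 2 Gy of PT, by 0.32 ± 0.048 for ALDOA (adjusted p = 0.0013, and 0.30 on its other probe, adjusted p = 0.00291) and 0.29 ± 0.053 for ALDOC (adjusted p = 0.00382). TPI1, which interconverts the triose phosphates, had 0.13 and 0.16 after 2 Gy and 0.36 and 0.45 after 10 Gy, and stayed within -0.0017 to 0.10 with Si306.

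Of the 7 members made up of the pay-off enzymes and LDHA, 6 were called higher at 10 Gy than at 2 Gy of PT, where 9.95% of all names were. The median difference of the 7 was 0.26, and ENO2 was not called. With median centring, 5 of all 36 members were called higher in this difference in place of 13. Other kept probes did not all share the rise. It was not called on the other PGK1 probes (0.11 and 0.14, adjusted p = 0.275 and 0.0547), on 1 of 2 other LDHA probes (-0.10, adjusted p = 0.215) or on the other PKM2 probe (0.11, adjusted p = 0.169), and the PKM2 call rests on 1 array at 2 Gy. It was called on the remaining LDHA probe (0.28, adjusted p = 0.0329) and on the other ENO1 probe (0.21, adjusted p = 0.0207). PGAM1, a phosphoglycerate mutase, had -0.51 and -0.50 after 2 Gy and -0.095 and -0.062 after 10 Gy, a difference of 0.43 ± 0.048 (adjusted p = 0.000251) and the largest rise with dose among the members. PGK1, which makes the first ATP of this phase, had -0.15 and -0.10 after 2 Gy and 0.19 and 0.23 after 10 Gy. LDHA, the lactate-forming subunit of lactate dehydrogenase, had -0.064 and -0.15 after 2 Gy and 0.20 and 0.11 after 10 Gy. PGK1, LDHA and ALDOA were the 3 members called lower after 2 Gy of PT and higher after 10 Gy on the brightest probe, as 0.876% of all names were, and their values at 2 Gy lay above 0 with median centring. No other kept probe of these genes changed sides. After 2 and 10 Gy of PT the other PGK1 probes had 0.29 and 0.40 on one and -0.26 and -0.11 on the next. The other LDHA probes had 0.16 and 0.45 on one and -0.18 and -0.29 on the next, and the other ALDOA probe 0.024 and 0.33. With Si306, PGK1 had 0.49 and 0.47 at 2 Gy and 0.12 and 0.11 at 10 Gy, and LDHA had 0.51 and 0.40 at 2 Gy and 0.27 and 0.26 at 10 Gy. On these probes both were thus higher with Si306 at both doses and less so at 10 Gy, with differences of -0.37 ± 0.044 (adjusted p = 0.000372) and -0.19 ± 0.056 (adjusted p = 0.0331).

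GAPDH, the dehydrogenase that opens the pay-off phase, had -0.022 and -0.10 after 2 Gy, 0.24 and 0.16 after 10 Gy, -0.27 and -0.29 with Si306 at 2 Gy and -0.35 and -0.37 with Si306 at 10 Gy. Since GAPDH is often used as a reference gene, its fall with Si306 is given with its value under median centring, 0.58 at 2 Gy and 0.22 at 10 Gy, where the sign was reversed. ENO1, the ubiquitous enolase, had 0.10 and 0.11 after 2 Gy, 0.28 and 0.29 after 10 Gy, -0.10 and -0.16 with Si306 at 2 Gy and -0.21 and -0.24 with Si306 at 10 Gy. ENO2, the neuronal enolase, was called in none of the 4 configurations, with means from -0.017 to 0.091. The pyruvate kinase gene listed on the array as PKM2 (current symbol PKM) had 0.10 and 0.22 after 10 Gy, 0.062 and 0.10 with Si306 at 2 Gy and 0.30 and 0.33 with Si306 at 10 Gy. Which splice forms of the gene its probes read was not analysed here. At 2 Gy of PT only 1 of its 2 arrays gave a value, -0.069, while the other PKM2 probe, at chr15:70278876-70278935 on the minus strand, was called higher there, at 0.21 and 0.24 (adjusted p = 0.000264). Its Si306 value was 0.23 ± 0.054 higher at 10 Gy (adjusted p = 0.0136), against the direction of most members, and that difference was -0.0047 with median centring.

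PFKFB3 and PFKFB4 make fructose-2,6-bisphosphate, the allosteric activator of phosphofructokinase. The brightest probe of PFKFB3 had -0.072 and -0.034 after 2 Gy, -0.091 and -0.16 after 10 Gy, 0.077 and -0.0073 with Si306 at 2 Gy and -0.20 and -0.25 with Si306 at 10 Gy. PFKFB4 had 0.25 and 0.30 after 2 Gy, 0.37 and 0.36 after 10 Gy, 0.13 and 0.12 with Si306 at 2 Gy and -0.13 and -0.14 with Si306 at 10 Gy. PFKFB4, EGLN1, CA9, BNIP3 and NDRG1 were the 5 members called higher with Si306 at 2 Gy and lower at 10 Gy, a pattern of 0.889% of all names. Of these 5, the fall at 10 Gy kept its sign under median centring for CA9 alone.

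**Figure D3:**
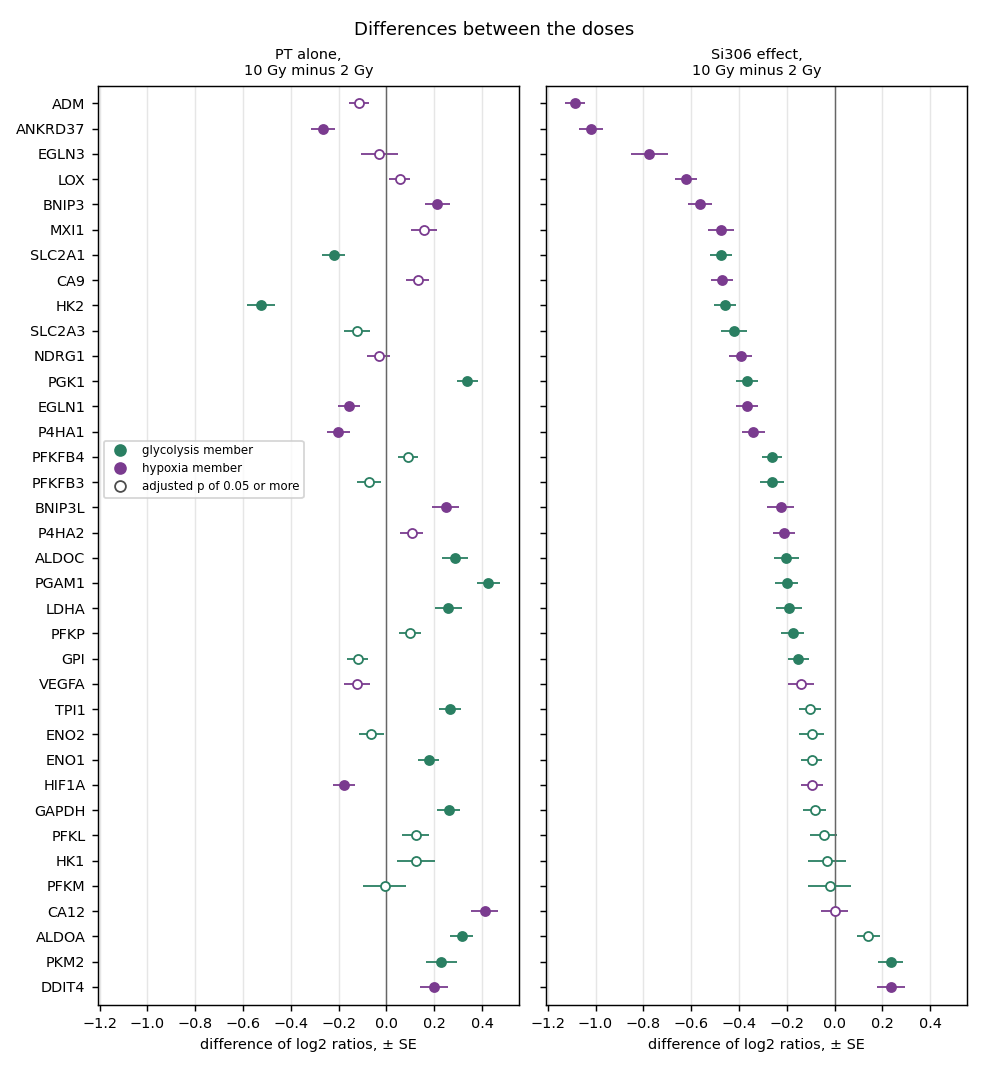
Difference between 10 Gy and 2 Gy in log2 ratio for each member, for PT alone and for the Si306 effect, with bars of 1 SE from the limma fit (n = 2 arrays a configuration) and open points where the adjusted p was 0.05 or more. Most Si306 differences lie left of 0, down to -1.08 for ADM, while for PT alone 6 of the 7 members made up of the pay-off enzymes and LDHA lie right of 0.

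Both differences between doses lost calls in other settings. With non-uniform background spots kept in, the called members were 9 for PT and 9 for Si306, against 19 and 25, while the share of all names called fell to 3.96% and 1.41%, and 0 members passed 2-fold in the Si306 difference in place of 2. Whichever array was dropped, the members' median difference stayed between 0.069 and 0.12 for PT and between -0.25 and -0.18 for Si306. The Si306 difference of ADM, ANKRD37, LOX, BNIP3 and SLC2A1 passed in each of the 22 settings run for single members, which leave out the separate-channel model, and 0 of the 19 PT differences did. With all 24 scans grouped by their labels and the array as a random block, a pair of choices changed together, 0 members were called by limma for PT (6 at an unadjusted p under 0.05) and 23 for Si306. In that setting 0% and 18.5% of all names were called.

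Several probes of a gene did not give the same answer in 10 of the 15 members with more than 1 kept probe (another sign, or a difference of over 0.5, in at least 1 configuration): SLC2A3, HK2, ALDOA, PGK1, PKM2, LDHA, PFKFB3, EGLN1, VEGFA and CA12. The widest disagreement was in PFKFB3. Its brightest probe, at chr10:6317068-6317127 on the plus strand (positions on hg17), stayed near 0 as above. A dimmer probe at chr10:6314902-6314961 had 0.72 and 0.65 after 2 Gy, 1.02 and 1.01 after 10 Gy, 2.13 and 2.26 with Si306 at 2 Gy and 3.07 and 2.98 with Si306 at 10 Gy. Fitted among all probes, its log2 fold change was 3.03 ± 0.041 with Si306 at 10 Gy (adjusted p = 7.48e-12) and 2.20 at 2 Gy, higher than the brightest probe of any member. Its Si306 value rose with dose, by 0.83 ± 0.058 (adjusted p = 8.77e-06), where the difference of the brightest probe was -0.26. The 2 further PFKFB3 probes were lower at 10 Gy. One had 0.84 with Si306 at 2 Gy and a difference of -0.69 (adjusted p = 6.35e-06), and the other had 0.17 and a difference of -0.10 that was not called (adjusted p = 0.358). Which transcripts of the gene each probe reads was not analysed here. In HK2 the probe at chr2:75031986-75032045 gave the values above, and the dimmer one at chr2:75029933-75029992 had means of -0.48 and -0.56 after PT at 2 and 10 Gy, then 0.17 and -0.50 with Si306. Both HK2 probes were lower at 10 Gy than at 2 Gy in the Si306 effect, with differences of -0.46 and -0.66. For PGK1 the probe at chrX:77187947-77188006 rose by 1.03 with Si306 at 2 Gy and 0.76 at 10 Gy, farther than the brightest one. The third PGK1 probe, at chrX:77184552-77184856, had 0.11 with Si306 at 2 Gy and was called lower at 10 Gy, at -0.21 (adjusted p = 0.00195). In the Si306 difference between doses all 3 PGK1 probes were lower, at -0.37, -0.27 and -0.33. For LDHA neither of the other probes shared the Si306 rise, with -0.017 at 2 Gy and -0.26 at 10 Gy on the probe at chr11:18385895-18385954 and -0.11 and -0.32 on the one at chr11:18381001-18381060. The other ALDOA probe did not share the Si306 rise either, with -0.018 at 2 Gy and -0.13 at 10 Gy.

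**Figure D4:**
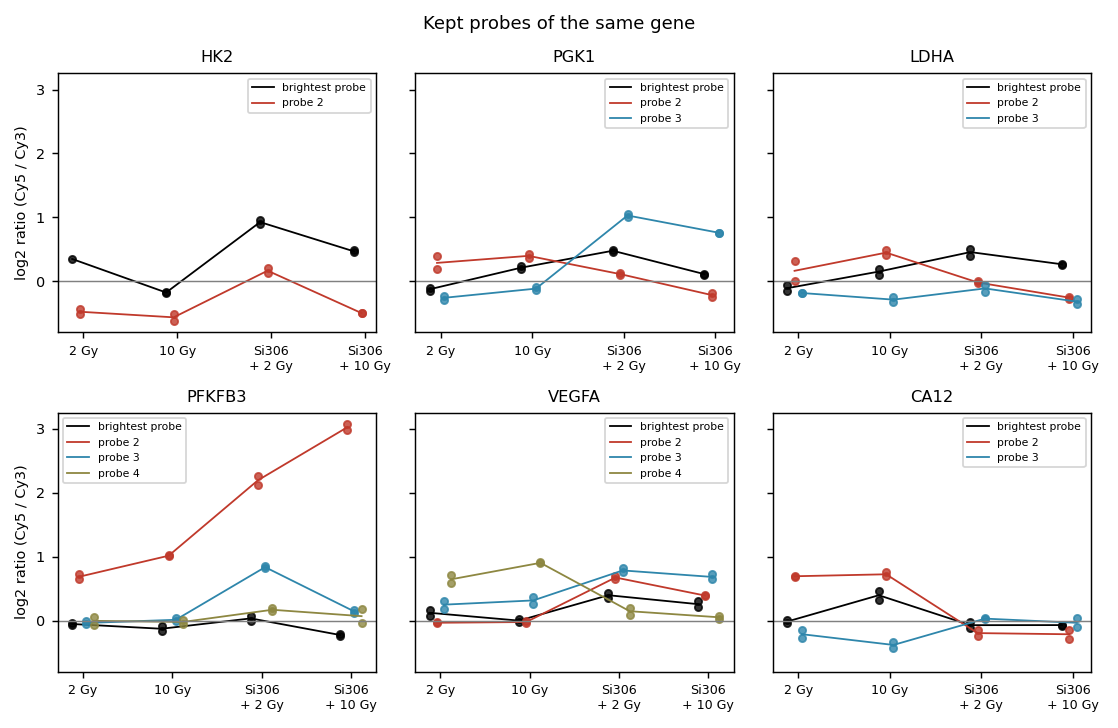
Log2 ratio on each array (points) and mean (line) in the 4 configurations for each kept probe of HK2, PGK1, LDHA, PFKFB3, VEGFA and CA12, with the brightest probe, whose values stand for the gene in the text, in black. In PFKFB3 a dimmer probe reaches 3.03 with Si306 at 10 Gy while the brightest stays at -0.22.

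Brightness itself differed between the slides. With each array centred on its median, ADM lay between 6.41 and 6.62 log2 units above it on the 4 PT arrays and between 3.06 and 3.86 on the 4 Si306 arrays, a difference of 3.09 for the same probe. CA9 differed by 2.95, CA12 by 2.60, LOX by 2.13 and DDIT4 by 2.04, all brighter on the PT slide. In the other direction, ANKRD37 differed by -2.10 and PFKFB3 by -2.06. Over all names the SD of this difference was 1.198 and the median -0.026, and 8 members lay among the 5% of names with the highest difference and 2 among the 5% with the lowest. The irradiated cells are on both slides, in Cy5 on one and in Cy3 on the other, so slide, dye and RNA preparation cannot be told apart in these differences. The separate-channel model, which compares such intensities, fitted a dye effect of 3.87 for ADM, 2.66 for LOX, 2.74 for DDIT4 and -1.64 for ANKRD37.

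Other genes of the same pathways were taken from lists drawn up beside the members. Of 33 tested hypoxia targets outside the set, 20 were called higher and 7 lower with Si306 at 2 Gy, and 11 higher and 11 lower at 10 Gy, where 38.6% and 27.9% of all names were at 2 Gy and 35% and 27.2% at 10 Gy. The share called higher at 10 Gy was thus near that of all names. In the Si306 difference between doses 20 of the 33 were lower and 2 higher, against 12.6% and 10.1% of all names. Their median was -0.19, beside -0.38 over the hypoxia members and -0.21 over all members. HMOX1, the heme oxygenase, had 2.11 and 2.09 with Si306 at 2 Gy, 4.3-fold, and 1.19 and 1.18 at 10 Gy, with a difference of -0.92 ± 0.045 (adjusted p = 8.39e-07). INSIG2, a brake on sterol synthesis, changed sides, from 0.16 and 0.21 with Si306 at 2 Gy to -0.56 and -0.60 at 10 Gy. ANGPTL4, a secreted lipase inhibitor, had 1.21 and 1.15 at 2 Gy and 1.25 and 1.27 at 10 Gy, with no called difference between doses (0.081, adjusted p = 0.238). After PT alone, 17 of the 33 were higher at each dose, and 10 and 8 were lower at 2 and 10 Gy, against 32% and 31.1% higher and 24.9% and 26.3% lower of all names. The collagen lysyl hydroxylases stood at both ends. PLOD1 had 1.01 and 1.02 after 2 Gy and 0.98 and 0.89 after 10 Gy, and PLOD2 had -0.95 and -0.87 after 2 Gy and -1.05 and -0.97 after 10 Gy.

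Of 23 other glycolysis and pyruvate genes tested, 1 was lower and 4 were higher in the Si306 effect at 10 Gy than at 2 Gy, against 12.6% and 10.1% of all names, with a median of 0.0049. PDK4, a kinase that shuts pyruvate dehydrogenase, had 1.52 and 1.41 with Si306 at 2 Gy and 1.75 and 1.64 at 10 Gy, 2.76-fold and 3.24-fold higher. Its close relative PDK2 rose after PT, at 0.70 and 0.61 for 2 Gy and 0.65 and 0.69 for 10 Gy. HKDC1, a further hexokinase, was the lowest of this list after PT, at -0.63 and -0.50 for 2 Gy and -0.66 and -0.66 for 10 Gy. TIGAR, a p53 target that lowers fructose-2,6-bisphosphate, had 0.24 and 0.33 after 2 Gy and 0.67 and 0.63 after 10 Gy, with a difference of 0.37 ± 0.049 (adjusted p = 0.000609).

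Of 10 other HIF subunits and regulators, 7 were called higher and 2 lower after each dose of PT, where 32% and 31.1% of all names were higher and 24.9% and 26.3% lower. EGLN2 (PHD1) was the highest, at 0.72 and 0.91 after 2 Gy and 0.75 and 0.71 after 10 Gy. ARNT, the partner of HIF1A, fell with dose, from -0.12 and -0.079 to -0.64 and -0.65, a difference of -0.55 ± 0.045 (adjusted p = 4.82e-05). VHL, which marks hydroxylated HIF1A for degradation, had 0.95 and 0.94 with Si306 at 2 Gy, 1.93-fold, and 0.63 and 0.62 at 10 Gy. CITED2, which competes with HIF1A for its coactivators, had 0.66 and 0.57 with Si306 at 2 Gy and 0.14 and 0.17 at 10 Gy.

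Of 7 pentose phosphate genes, which divert glucose-6-phosphate to NADPH and ribose, 2 were called higher and 4 lower with Si306 at 2 Gy, and 1 higher and 2 lower with Si306 at 10 Gy, where 38.6% and 27.9% of all names were at 2 Gy and 35% and 27.2% at 10 Gy. After PT, 2 and 3 were called higher at 2 and 10 Gy and 2 lower at each dose, against 32% and 31.1% higher and 24.9% and 26.3% lower of all names.

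**Figure D5:**
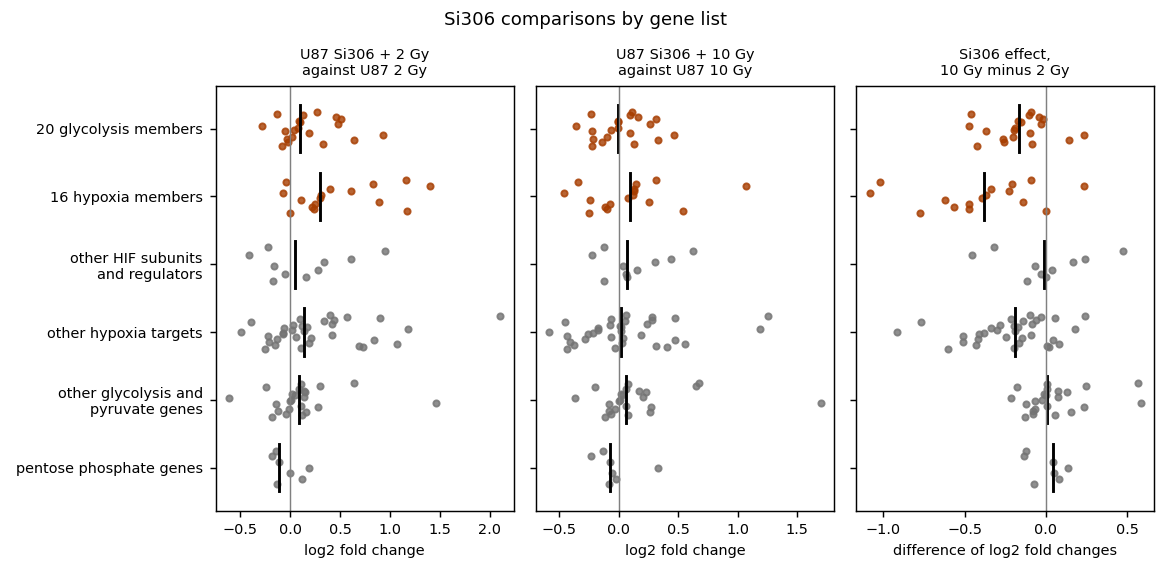
Log2 fold change with Si306 at 2 Gy and at 10 Gy, and the difference between them, for the members and the 4 lists of other pathway genes, with 1 point per gene and the median as a black bar. In the difference, 12 of 16 hypoxia members and 20 of 33 other hypoxia targets were called lower, and 1 and 2 higher, while the medians of the other glycolysis genes were 0.093 with Si306 at 2 Gy, 0.06 at 10 Gy and 0.0049 in the difference.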

How the data were processed

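RNA of U87 MG cells was hybridised to 2-colour Agilent arrays with 45015 spots. Per the file headers the deposited scanner files came from Agilent Feature Extraction 9.5.3.1 and hold each spot's intensity in both channels and its log10 ratio of Cy5 over Cy3. The value table repeats that deposited log10 ratio to fewer decimals (they differ by at most 0.00500). Samples were grouped by the labels, and scans were assigned to arrays by the headers.

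Spots flagged as outliers or with a non-uniform local background (a choice made after seeing the data) were left out, mean signals were corrected by normexp (offset 50), each scan was normalised by loess, and spots of a probe and scans of an array were averaged. Probes well above background in either channel on both arrays of at least 1 configuration were kept, 30431 of 41000, and the brightest kept probe stood for a gene name (22944 of 30982 names). R 4.3.3 ran the packages statmod 1.5.0, data.table (version 1.17.8) and limma 3.58.1, which fitted the 4 configurations on 8 arrays together with moderated variances (4 residual and 6.34 prior degrees of freedom), and p-values were adjusted by Benjamini-Hochberg over all names. Differences between doses were contrasts of the same fit. The limma fit and its contrasts were tested on simulated log2 ratios, and the steps before the fit were not. The number of arrays limits the precision. Probe positions are on hg17, as the files give them. Promoters came from RefSeq tables (GRCh38.p14) through gene symbols.

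The members, the lists of other pathway genes and the tests were chosen with earlier results of these data known. Every member is described in the text, and of the other lists the genes named are those with the highest and lowest values in a comparison. The values of 1 pathway gene and 1 marker gene are not reported here. Of the listed pathway genes, PGAM2 had no probe kept, and PGAM4 and KDM4B were not among the gene names. Alternatives were the scanner's own ratios, median centring, no background subtraction, other filters, the mean of a gene's probes, scan rounds, all 24 scans, the replicate number as a block, a separate-channel model, a test against a 1.2-fold change and leaving out each array.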

Additional observations from a re-analysis of the deposited data

Results flagged for a closer look

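For 44 results the effect of a treatment differed between 2 Gy and 10 Gy by a test of the difference itself, limma's contrast of the doses with a Benjamini-Hochberg adjusted p under 0.05. The values are those of each member's brightest probe. Groups of 2 arrays are too small for a test of single arrays that stand apart.

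For the Si306 effect, the difference in log2 ratio (10 Gy minus 2 Gy) was below 0 for 23 members. Among hypoxia members it was ADM -1.08, ANKRD37 -1.02, EGLN3 -0.77, LOX -0.62, BNIP3 -0.56, MXI1 -0.48, CA9 -0.47, NDRG1 -0.39, EGLN1 -0.37, P4HA1 -0.34, BNIP3L -0.23 and P4HA2 -0.21. Among glycolysis members it was SLC2A1 -0.48, HK2 -0.46, SLC2A3 -0.42, PGK1 -0.37, PFKFB4 -0.26, PFKFB3 -0.26, ALDOC -0.20, PGAM1 -0.20, LDHA -0.19, PFKP -0.17 and GPI -0.15. It was above 0 for DDIT4 0.24 and PKM2 0.23. The adjusted p of these 25 ran from 1.4e-07 to 0.0331, and the 2 arrays of each configuration are all that stands behind each value.

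For PT alone, the difference (10 Gy minus 2 Gy) was above 0 for 13 members. These were PGAM1 0.43, CA12 0.41, PGK1 0.34, ALDOA 0.32, ALDOC 0.29, TPI1 0.27, GAPDH 0.26, LDHA 0.26, BNIP3L 0.25, PKM2 0.23, BNIP3 0.21, DDIT4 0.20 and ENO1 0.18. It was below 0 for 6 members, HK2 -0.52, ANKRD37 -0.26, SLC2A1 -0.22, P4HA1 -0.20, HIF1A -0.18 and EGLN1 -0.16. The adjusted p of these 19 ran from 0.000251 to 0.0364, and the values of HK2 and PKM2 rest on 1 array at 2 Gy.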

How the results depend on the processing

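The limits are few arrays, 1 dye orientation and the brightness of the members. With 2 arrays a configuration, small differences are open to the spread between arrays, while signal was not the limit, since the brightest probe of all 36 members was well above background on 8 of 8 arrays. The sign of a value in a configuration depended on how bright probes were centred, while the called differences between doses largely kept their sign. Their size and calls did change. Under median centring the members' median difference went from 0.10 to 0.041 for PT and from -0.21 to -0.45 for Si306. Where a cause of a change is not named here, the cause was not tested.

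Centring arrays on their medians rather than by loess reversed 42 member values. After 2 Gy of PT they were ALDOA 0.33, BNIP3L 0.064, CA12 0.42, GAPDH 0.47, LDHA 0.40, LOX 0.37, P4HA1 0.089, PFKFB3 0.23, PFKP 0.45, PGK1 0.40 and PKM2 0.43. After 10 Gy of PT these were ANKRD37 0.17, BNIP3L 0.23, ENO2 0.25, HK2 0.21, PFKFB3 0.11, PGAM1 0.32 and SLC2A1 0.24. With Si306 at 2 Gy these were CA12 0.45, ENO1 0.74, GAPDH 0.58, GPI 0.83, HK1 0.45, P4HA1 0.48, P4HA2 0.59 and PGAM1 0.93. With Si306 at 10 Gy these were BNIP3 0.15, CA12 0.29, EGLN1 0.23, ENO1 0.35, ENO2 0.32, GAPDH 0.22, GPI 0.39, HK1 0.28, NDRG1 0.49, P4HA2 0.17, PFKFB3 0.17, PFKFB4 0.074, PFKM 0.41, PGAM1 0.43 and TPI1 0.61. In the Si306 difference between doses it was PKM2 -0.0047. The medians over the members became 0.47, 0.49, 0.84 and 0.42 in the 4 configurations, 0.041 in the PT difference and -0.45 in the Si306 difference.

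The mean of all kept probes of a gene reversed 9 values, CA12 0.16, HK2 -0.26, PFKFB3 0.15 and PKM2 0.15 after 2 Gy of PT, EGLN1 -0.019 and PFKFB3 0.22 after 10 Gy of PT and HK2 -0.014, LDHA -0.10 and PFKFB3 0.75 with Si306 at 10 Gy. The medians over the members were then 0.14, 0.21, 0.17 and -0.0023 in the 4 configurations. All 24 scans as labelled, with the array as a random block, reversed 2, CA12 0.13 and PGK1 0.0090 after 2 Gy of PT. That setting left 0 members and 0% of all names called in the PT difference, where the members' median was 0.014. The separate-channel model with a dye effect gave medians of -0.44, -0.49, -0.38 and -0.75 in the configurations and -0.25 in the Si306 difference. It compares intensities between slides, whose values differ as described above. The scanner software's log ratios gave a median of 0.016 with Si306 at 10 Gy, and the rounded copy of them in the value table gave 0.016.

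Further settings lowered the counts of called members. Testing against a 1.2-fold change left 6 called after 2 Gy, 9 after 10 Gy, 12 and 4 with Si306 at 2 and 10 Gy, 0 in the PT difference (limma; 3 at an unadjusted p under 0.05) and 7 in the Si306 difference, where the shares of all names were 11.2%, 13.1%, 15.9%, 12.6%, 1.12% and 1.33%. With non-uniform background spots kept in, an alternative chosen after seeing the data, 16 were called after 2 Gy, 9 in the PT difference and 9 in the Si306 difference (22.9%, 3.96% and 1.41% of all names), with medians of 0.14 for Si306 at 2 Gy and -0.16 for the Si306 difference, and no member passed 2-fold in that difference. Scan round 1 alone, which held 1 array in each PT configuration, left 1 called in the PT difference of the 34 members it measured (2.11% of all names). Scan round 3 alone had 21, 22, 23 and 22 called in the configurations, 13 in the PT difference and 17 in the Si306 difference (48.2%, 49.1%, 58.2%, 53.2%, 13.4% and 12.9% of all names). The PT difference had 15 with scan round 2 alone (16.2%), 15 with the scanner's own ratios (16.7%) and 16 with no filter on dim probes (12%).

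Leaving out each array in turn gave 20 to 26 called members after 2 Gy, 18 to 27 after 10 Gy, 23 to 27 and 20 to 29 with Si306 at 2 and 10 Gy, 12 to 19 in the PT difference and 17 to 25 in the Si306 difference. The medians ran from 0.047 to 0.090, 0.10 to 0.15, 0.21 to 0.25, 0.036 to 0.042, 0.069 to 0.12 and -0.25 to -0.18 in the same order. A configuration left with 1 array was assumed to vary like the others, and the counts of called members rest on that assumption. Shares of all names are not given beside these counts, so the counts cannot show whether the members stood apart. The low PT count of 12 came without array 1 of U87 2 Gy or of U87 10 Gy, the median of 0.047 without array 1 of U87 2 Gy, and that of -0.25 without array 2 of U87 Si306 + 2 Gy.

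The replicate numbers did not pair the scans: scans with the same number had a median correlation of deviations of -1.8e-05 (-0.083 to 0.085 over 30 pairs). With the replicate number as a block and the scans fitted with the array as a random block, a pair of choices changed together, no value was reversed or lost its call and 25 gained one. The called members were then 26, 32, 28 and 31 in the configurations, 26 in the PT difference and 30 in the Si306 difference. Of all names, 58.1%, 59.1%, 68.4%, 64.1%, 27.9% and 31.7% were called in the same order. No subtraction of background, other filters on dim probes and leaving out GC-rich probes reversed no value.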
